A study of Mus musculus with 34 samples.

Results

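The heart RNA samples of this mouse series differed in their signal for transcripts typical of hepatocytes, from high values down to background. Among the samples of days 1 and 3, the 6 with most of this signal are set here against the 6 with least. A liver score was computed for every array from the transcripts of Alb, Apoa1, Apoa2, Apoc3 and Fgb: the mean over these 5 genes of the log2 ratio minus the gene's median over all 34 arrays. Of the 23 arrays of days 1 and 3, the 6 with the highest score, chosen by these measured log2 ratios, are called high-score arrays and the 6 with the lowest score low-score arrays. The other 11 arrays of those days and the 11 arrays of day 28 took no part in the comparison of the sets, and tests were run on them alone.

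Female C57BL/6 mice, acquired at 5 to 6 weeks of age, received 1 instillation into the trachea. The exposed mice received 162 µg of Printex 90, a carbon black made of nanoparticles, suspended in saline with lung lavage fluid of the same strain, and the control mice received the vehicle. Hearts were taken 1, 3 or 28 days later, which gave 6 carbon black and 6 control arrays for day 1. Day 3 had 5 carbon black and 6 control arrays, and day 28 the same numbers. Total RNA of single mice, labelled with Cy5, was hybridised beside a universal mouse reference RNA labelled with Cy3, with no dye swap. Every value below is a log2 ratio of heart sample over that reference unless it is called a difference, a slope or a score, so a positive ratio means more than in the reference pool. The labels name the tissue as heart and do not say which part of it was used, and the number of arrays limits the precision throughout.

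Hepatocytes secrete most proteins of blood plasma: albumin, the apolipoproteins that coat lipid particles, the chains of fibrinogen and the other clotting factors. They also hold the enzymes of gluconeogenesis, of the urea cycle, of amino acid breakdown and of drug oxidation, many of which few other cells make in quantity. Cardiac muscle makes sarcomere proteins such as the myosin light chain Myl2, and is not known as a source of albumin or fibrinogen. In bulk RNA, a larger number of cells of a type and more RNA per cell cannot be told apart.

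The 5 transcripts that chose the arrays are described first, with no test. Albumin (Alb, chromosome 5) lay at 4.50, 4.68 and 5.13 (lowest, median and highest) on the 6 high-score arrays and at -0.02, 0.08 and 0.72 on the 6 low-score arrays. The fibrinogen beta chain (Fgb, chromosome 3) lay at 3.94, 4.64 and 5.26 on the high-score arrays and at -0.14, 0.07 and 0.20 on the low-score arrays. Neither gene overlapped between the sets, and the high-score arrays were close together in albumin (SD 0.24, n = 6). Apoa2, an apolipoprotein of high density lipoprotein, ran from 2.84 to 4.90 on the high-score arrays and from -0.05 to 0.16 on the low-score arrays. Apoa1, the main protein of the same particle, ran from 1.46 to 4.28 on the high-score arrays and from -0.04 to 0.02 on the low-score arrays. Apoc3, an inhibitor of lipoprotein lipase, ran from 1.14 to 3.67 on the high-score arrays and from -0.06 to 0.08 on the low-score arrays. These 3 apolipoproteins spread more widely over the high-score arrays than albumin did, with an SD of 0.74 for Apoa2, 1.14 for Apoa1 and 0.95 for Apoc3. All 5 transcripts were well above background on all 6 high-score arrays. On the low-score arrays Alb and Fgb were above background on 1 array each, the carbon black day 1 replicate 3, and the 3 apolipoproteins on none.

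**Figure D1:**
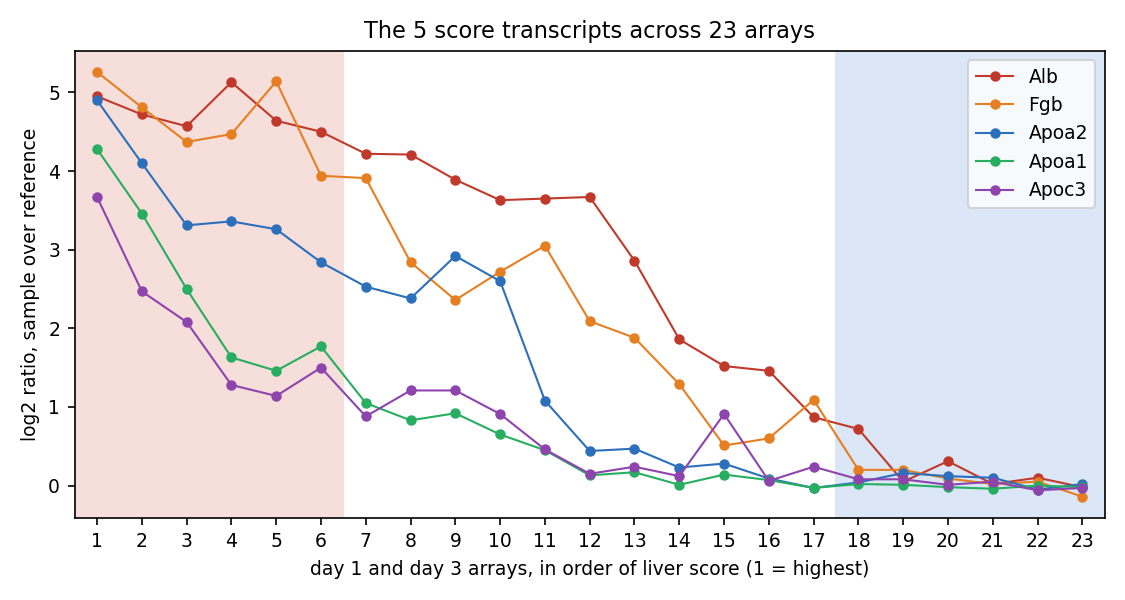
Log2 ratio (sample over reference, y axis) of the 5 score transcripts on the 23 arrays of days 1 and 3, ordered by liver score from highest to lowest (x axis), 1 point per array. The 6 high-score arrays are shaded red and the 6 low-score arrays blue: Alb stays between 4.50 and 5.13 on the high-score arrays, while Apoa1 spreads from 1.46 to 4.28 there and lies near 0 on the low-score arrays.

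The score of the high-score arrays ran from 2.58 to 4.28 with a median of 2.94, and that of the low-score arrays from -0.37 to -0.12 with a median of -0.26. The first array outside the high set, control day 1 replicate 1, scored 2.19, and the last array inside it, carbon black day 3 replicate 1, scored 2.58. At the other end, carbon black day 1 replicate 4 was left out at 0.10, and carbon black day 1 replicate 3 was the last one in at -0.12. The 11 arrays in neither set filled the range between 0.10 and 2.19, so the sets are the ends of a continuous run and not 2 classes. At day 28 all 11 scores lay between -0.35 and -0.05, within or close to the range of the low set.

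The high set held 2 carbon black and 4 control arrays, 1 from day 1 and 5 from day 3, and the low set held 4 carbon black and 2 control arrays, 3 from each day. The group means at day 1 were 0.16 ± 0.63 for carbon black and 1.70 ± 0.88 for control (SD, n = 6 each). At day 3 they were 1.50 ± 1.41 for carbon black (SD, n = 5) and 1.80 ± 2.03 for control (SD, n = 6). The day 28 means were -0.29 ± 0.07 for carbon black (SD, n = 5) and -0.25 ± 0.11 for control (SD, n = 6). At day 3 both arms therefore held arrays at both ends, whereas at day 1 only 1 of 6 carbon black arrays scored above 0.12. Each set was spread over 6 slides and 6 scan days. The share of spots well above background ran from 49.4% to 64.8% on the high-score arrays and from 52.7% to 60.9% on the low-score arrays, and the median Cy5 signal ran from 106 to 155 on the high-score arrays and from 103.5 to 137.5 on the low-score arrays. One array of the high set stands apart in what follows: control day 3 replicate 5, the highest score of the series. It also had the lowest log2 ratio of the ventricular light chain Myl2 of all 34 arrays, 1.61. The next lowest Myl2 ratios were on arrays of low liver score. They were 2.47 on carbon black day 1 replicate 4 (score 0.10) and 2.77 on control day 28 replicate 6 (score -0.05).

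**Figure D2:**
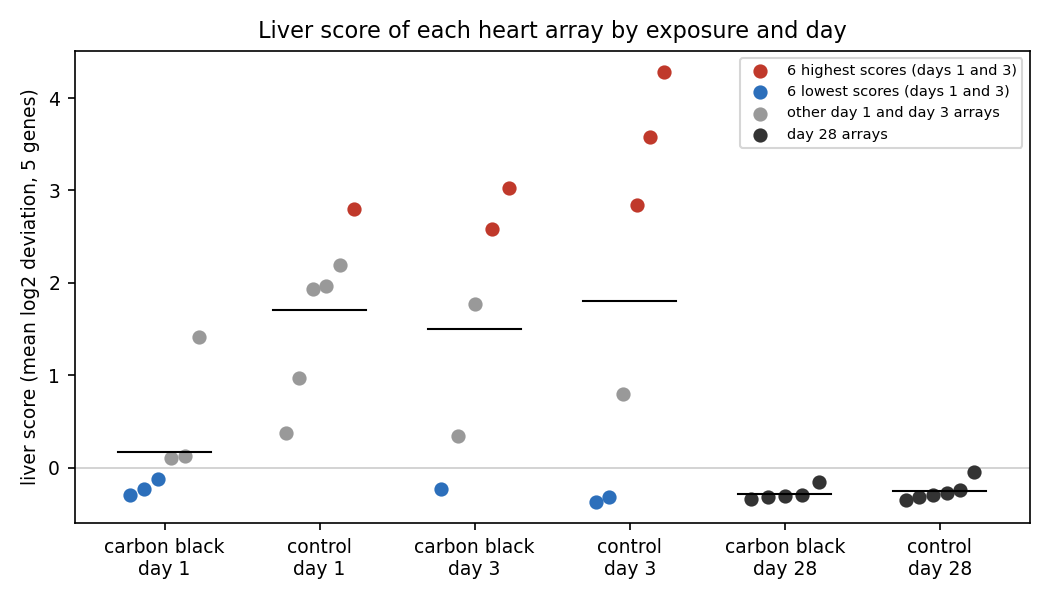
Liver score (mean log2 deviation over the 5 score genes, y axis) of each of the 34 arrays by exposure and day (x axis), with the group mean as a line. High-score arrays (red) come from carbon black day 3, control day 1 and control day 3, low-score arrays (blue) from carbon black at both early days and control day 3, and no day 28 array exceeds -0.05.

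Across the 19798 genes measured, the values of all 6 high-score arrays lay above those of all 6 low-score arrays for 142 genes (0.717% of genes), and below them for 29 genes (0.146%). These percentages belong to a contrast that the choice of the arrays used, so nothing is read from them. A difference of 1 or more on the log2 scale was added to the lack of overlap for 116 higher genes (0.586%) and 1 lower gene (0.00505%). Over the 142 higher genes, the 5 score genes included, the difference of the means ran from 0.12 to 5.27 with a median of 1.71, where the median over all genes was -0.01. Of the 142, 132 were well above background on every high-score array, and 67 were above background on no low-score array, so that for those only a lower bound of the fold can be given. The differences printed for such genes are measured means with the low side at background, and no order among them is read. The bound is on the Cy5 signal alone and not on the ratio: it sets the mean of the high-score arrays against the lowest signal that counts as above background on each low-score array, or the probe's own signal where that was higher.

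Ces1c (chromosome 8), a carboxylesterase that the liver secretes into mouse plasma, lay at 4.24, 5.37 and 6.14 (lowest, median and highest) on the high-score arrays and between -0.02 and 0.04 on the low-score arrays, a difference of 5.27. Its normalized log2 Cy5 signal averaged 11.93 on the high-score arrays and 6.25 on the low-score arrays, at least 50.9-fold higher. The fibrinogen gamma chain (Fgg, chromosome 3), the partner of Fgb, lay between 3.57 and 6.50 on the high-score arrays and between -0.03 and 0.12 on the low-score arrays, with a Cy5 signal at least 30.1-fold higher. Fabp1 (chromosome 6), the fatty acid binding protein of liver and gut, lay between 3.91 and 6.64 on the high-score arrays and between -0.36 and 0.19 on the low-score arrays, with a Cy5 signal at least 38.9-fold higher. None of the 3 was above background on a low-score array, and for Ces1c and Fabp1 the ratio, which also holds the reference signal, gave a smaller fold than the bound on the Cy5 signal. Antithrombin (Serpinc1) had a Cy5 signal at least 17.5-fold higher, the precursor of alpha-1-microglobulin (Ambp) at least 22.3-fold, Cyp3a41a at least 14.6-fold and beta-2-glycoprotein I (Apoh) at least 14.8-fold. For Cyp2a5 it was at least 17.7-fold, for Cyp2a4 at least 17.0-fold and for fructose bisphosphatase (Fbp1) at least 16.4-fold higher. Fgb and Alb, above background on 1 low-score array each, differed by 4.59 and 4.55 in log2 ratio. The P450 enzymes Cyp2a4 and Cyp2a5, like the Cyp3a, Mug and Serpina1 genes named here, belong to families of near-identical sequence, and a probe may read more than 1 member.

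**Figure D3:**
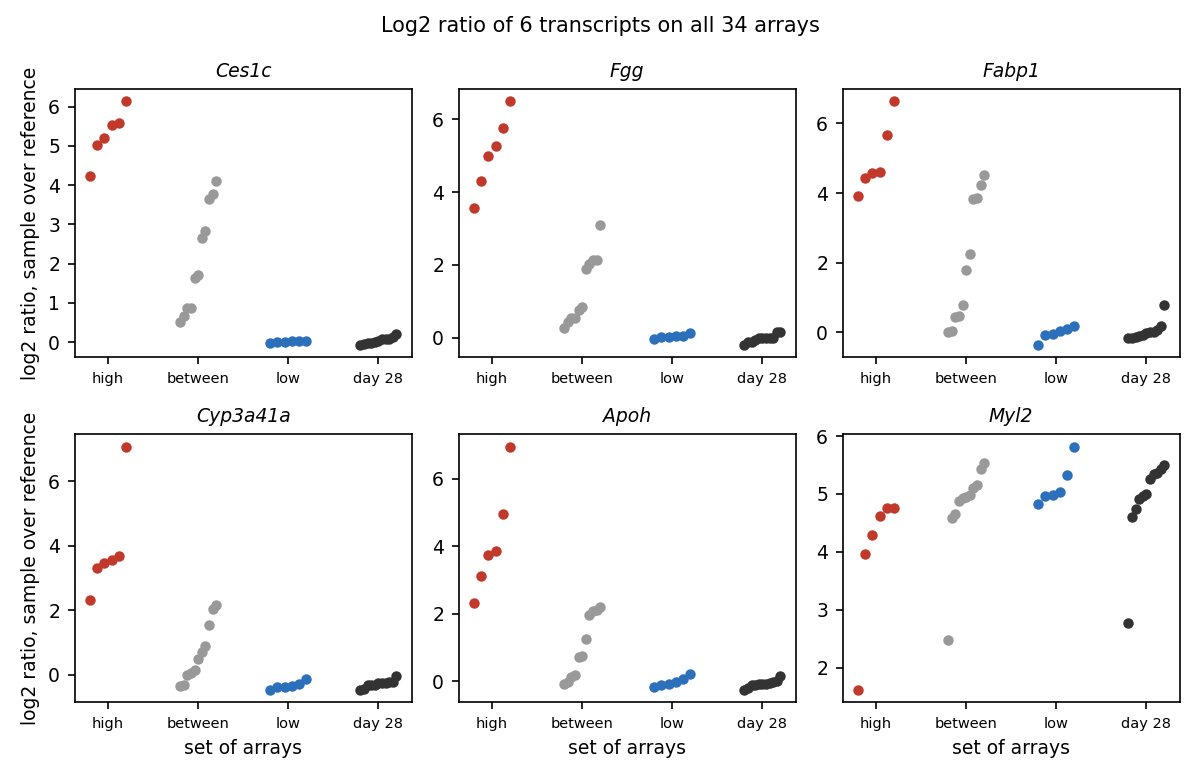
Log2 ratio (sample over reference, y axis) of 6 transcripts on all 34 arrays, split into the 6 high-score, 11 other day 1 and day 3, 6 low-score and 11 day 28 arrays (x axis), 1 point per array. Ces1c, Fgg, Fabp1, Cyp3a41a and Apoh lie above every low-score value on all 6 high-score arrays, and Myl2 lies below, with control day 3 replicate 5 at 1.61.

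Promoters of 4 genes are shown so that the transcripts that chose the arrays (Alb and Fgb) can be seen beside the pair with the leading slopes in the tests below (Fabp1 and Ces1c). Each is the stretch of 125 bases just before the annotated start, 5′ to 3′ on the strand of the gene, from RefSeq on build GRCm38.p6. Capitals mark the CCAAT box, a common promoter element, or ATTGG where it is read on the other strand. The Alb stretch is chr5:90460745-90460869 on the plus strand, that of Fgb chr3:83049864-83049988 on the minus strand, that of Fabp1 chr6:71199754-71199878 on the plus strand, and that of Ces1c chr8:93131284-93131408 on the minus strand.
Alb: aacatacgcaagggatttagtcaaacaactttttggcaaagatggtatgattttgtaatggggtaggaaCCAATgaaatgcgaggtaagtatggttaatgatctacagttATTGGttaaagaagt
Fgb: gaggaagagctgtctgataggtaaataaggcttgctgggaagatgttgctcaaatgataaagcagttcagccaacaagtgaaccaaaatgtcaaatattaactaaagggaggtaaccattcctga
Fabp1: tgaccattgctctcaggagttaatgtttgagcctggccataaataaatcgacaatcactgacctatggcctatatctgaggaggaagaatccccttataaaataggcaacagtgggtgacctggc
Ces1c: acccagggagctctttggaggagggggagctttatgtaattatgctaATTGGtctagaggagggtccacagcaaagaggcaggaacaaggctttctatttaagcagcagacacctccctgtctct
In these stretches the box begins 56 bases before the start of Alb, with a copy on the other strand at 15 bases, and 78 bases before that of Ces1c, on the other strand, and its letters are not in the stretches of Fgb and Fabp1. Searched on both strands over the 250 bases before each start, the box was found in 41 of the 97 higher genes whose promoter is in the table (42.3%) and in 37.5% of all 27025 genes of the table, or 33.8% of its 32851 promoters. The share in the higher genes is thus near that of all genes. A match is a description of the letters and not a measured site.

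The named liver lists are read next, by role. Over all 19798 genes measured, 9565 differed by more than 0, and in 142 (0.717%) the sets did not overlap with the high-score arrays higher. These are the shares to set beside the counts of each list. Of 43 secreted liver proteins 32 passed the filter on dim probes, 31 of these differed by more than 0, and in 23 the sets did not overlap, with a median difference of 2.43. Of the 103 members of the liver lists that passed the filter, 46 passed only through arrays of days 1 or 3, where the high-score arrays are, so the counts of passing members describe and do not support. Fgg, Serpinc1, Ambp and Apoh, described above, are secreted proteins. Prothrombin (F2) differed by 3.40, the heme scavenger hemopexin (Hpx) by 3.25, kininogen (Kng1) by 3.16, the vitamin D binding protein (Gc) by 2.87 and plasminogen (Plg) by 2.46. Several members known from other tissues too, such as transferrin (Trf, 0.64) and vitronectin (Vtn, 0.75), overlapped between the sets and were above background on all 12 arrays. Ahsg, the fetuin A gene, was the only secreted member with a difference below 0, at -0.33, or -0.21 without control day 3 replicate 4.

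Of 36 hepatocyte metabolic enzymes 29 passed the filter, 28 differed by more than 0 and 15 had sets that did not overlap, with a median difference of 1.43. Besides Fabp1 and Fbp1, urate oxidase (Uox) differed by 3.33. Uox lay between 1.38 and 6.03 on the high-score arrays and between -0.05 and 0.12 on the low-score arrays. The enzyme of glyoxylate removal (Agxt, 2.98), the methionine and betaine enzymes Mat1a (2.40) and Bhmt (2.26) and arginase (Arg1, 1.67) were all without a signal above background on the low-score arrays. Enzymes that were above background on all 12 arrays included argininosuccinate lyase (Asl, 0.60), alcohol dehydrogenase (Adh1, 0.50) and fumarylacetoacetate hydrolase (Fah, 0.37), and in these the sets overlapped. Without control day 3 replicate 5, Adh1 differed by 0.27 and Fah by 0.16.

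Among 29 enzymes and transporters of xenobiotic metabolism 18 passed the filter, 16 differed by more than 0 and 8 had sets that did not overlap, with a median of 1.11, or 0.72 without control day 3 replicate 5. Besides Ces1c, the list held the P450 enzymes Cyp2d26 (3.18), Cyp2f2 (2.57) and Cyp2c29 (2.40). Cyp2d26 lay between 2.20 and 4.96 on the high-score arrays and between -0.13 and 0.21 on the low-score arrays. Cyp2f2, which is also an enzyme of airway club cells, lay between 0.22 and 4.46 on the high-score arrays and between -0.86 and -0.13 on the low-score arrays, and its SD over the high-score arrays was 1.91. The bile salt export pump Abcb11 (1.97), the transporter of the canalicular membrane, was above background on all 6 high-score arrays and on no low-score array. Cyp2e1, the ethanol-inducible P450, differed by 1.11, but its sets overlapped.

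The acute phase list, proteins that the liver raises in inflammation, was lower in its median than the secreted proteins: 16 of 18 members passed the filter, 2 had sets apart and the median difference was 0.39. Serpina3k differed by 3.82, between 1.49 and 7.11 on the high-score arrays and between 0.01 and 0.17 on the low-score arrays. Serum amyloid A2 (Saa2) differed by 1.49, with values between -0.01 and 3.10 on the high-score arrays and between -0.40 and 0.14 on the low-score arrays, and the orosomucoids Orm2 and Orm1 by 1.47 and 1.20, all 3 with overlap. Without control day 3 replicate 5 the difference of Orm1 was 0.74. Hamp, the gene of the iron hormone hepcidin, which cardiac muscle makes too, differed by -1.07, or by -0.65 without control day 3 replicate 4. A part of the instillation itself in these values was not tested.

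Transcription factors of hepatocytes were measured at 8 of 12, with a median difference of 0.32 and no gene with sets apart. Foxa2, a factor of liver and gut, lay between -1.07 and 1.90 on the high-score arrays and between -1.62 and -1.07 on the low-score arrays, a difference of 0.86. It was above background on 5 high-score arrays and on no low-score array. Its difference rested on control day 3 replicate 5: without it Foxa2 differed by 0.41, and the list median was 0.17. Foxa2 also lay at 1.66 on control day 3 replicate 1, an array in neither set with a liver score of 0.80. A score of the airway and alveolar markers, computed like the liver score, was 4.18 on that array. A part of airway cells in the values of Foxa2 was not tested. For Kupffer and sinusoidal cells, the macrophages and vessel cells of the liver, 9 of 10 markers passed, none had sets apart, and the median difference was 0.26. Their members of greatest difference were Cd5l (1.28), Clec4f (0.73), Vsig4 (-0.66) and Fcna (0.45). Without control day 3 replicate 5 the list median was 0.10, Cd5l differed by 0.77, Clec4f by 0.32 and Fcna by 0.26, and without control day 3 replicate 4 Vsig4 differed by -0.41. Clec4f, a receptor confined to Kupffer cells, was above background on 6 high-score and 5 low-score arrays. Bile duct markers (6 of 6 passed) had a median difference of 0.06, or -0.03 without control day 3 replicate 6.

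Of the 142 genes with higher values and sets apart, 53 were in the score or a liver list, the 5 score genes included. The other 89 were in no list, 69 of these with a gene symbol. None lay in a list other than those of the liver. As the share over all genes was 0.717% and those lists are short, this lack is not read as a result. Examples of those 69, picked after their values were seen, are further plasma proteins and P450 enzymes. The clotting and anticlotting proteins Proc (2.61), F10 (1.96), F12 (1.87), Serpind1 (1.67) and F11 (0.81) were among them. So were the complement proteins Hc (2.73) and C4bp (2.53), the mannose binding lectin Mbl2 (3.21), and both subunits of the asialoglycoprotein receptor, Asgr1 (1.43) and Asgr2 (1.64), through which hepatocytes take up aged glycoproteins. Without control day 3 replicate 5, F11 differed by 0.44 and Asgr1 by 0.89. The protease inhibitors Mug1 and Mug2 of the alpha-2-macroglobulin family differed by 3.86 and 2.96. Small differences without overlap, such as those of Wdr61 (0.30), Kin (0.23), Ins2 (0.19) and Adam2 (0.17), close the list. Of the 137 higher genes other than the score genes, 18 had another probe that passed the filter. All 22 such probes differed by more than 0, where 9565 of all 19798 genes did, but only 11 of the 22 by 1 or more. Several gave much smaller differences than the probe used, such as 2.29 for Ces1c and 1.28 for Serpinc1, while that of Plg gave 2.58. These probes were read on the arrays that chose the genes, so they are no separate test.

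**Figure D4:**
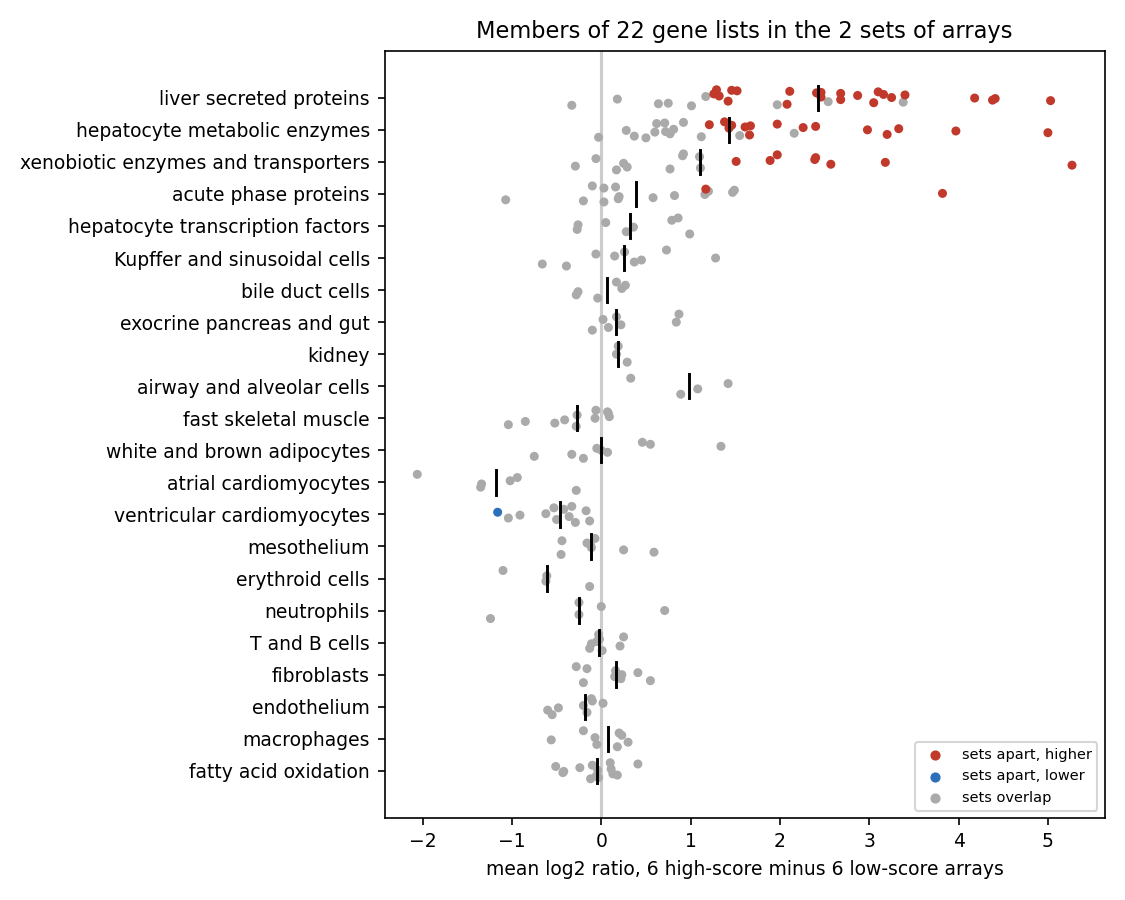
Difference of the mean log2 ratio, 6 high-score minus 6 low-score arrays (x axis), for each measured member (points) of 22 gene lists (rows), with the list median as a black bar. Members whose sets do not overlap are red where higher and blue where lower: red points lie only in the liver lists, and the one blue point is Myl2 at -1.16.

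Myl2 (chromosome 5), the regulatory light chain of ventricular myosin, was the single gene lower by 1 or more with sets apart. It lay at 1.61, 4.46 and 4.76 (lowest, median and highest) on the high-score arrays and at 4.83, 5.01 and 5.82 on the low-score arrays, a difference of -1.16. The highest high-score value and the lowest low-score value, 4.76 and 4.83, nearly met, and without control day 3 replicate 5 the difference was -0.68. The next lower genes were small: Snn, which codes for stannin, differed by -0.52, Samd4 by -0.44, the mitochondrial ribosome protein Mrpl42 by -0.36 and Poglut2 by -0.35. Ttc30a1, Ghrl (ghrelin), Pdhx (a part of the pyruvate dehydrogenase complex), Prnp (the prion protein), Spata7, Fam13b and Zfp113 differed by -0.34 to -0.26, and Zfp113 by -0.15 without carbon black day 1 replicate 5.

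All 12 ventricular cardiomyocyte genes and all 6 atrial genes had a mean below 0 in the difference, although only Myl2 had sets apart. Of all 19798 genes, 9565 differed by more than 0. The ventricular median was -0.46, led by Myl2, troponin I (Tnni3, -1.04), Myl3 (-0.91) and cardiac actin (Actc1, -0.62). All 12 ventricular genes were above background on all 12 arrays, and troponin T (Tnnt2) lay between 3.58 and 4.08 on the high-score arrays and between 3.75 and 4.83 on the low-score arrays, so the heart label holds in both sets. The ventricular score, computed like the liver score, ran from -0.83 to 0.20 on the high-score arrays and from -0.19 to 0.98 on the low-score arrays. The atrial median was -1.18, led by Bmp10 (-2.06), Myl7 (-1.35), Sln (-1.34) and Myl4 (-1.02). One high-score array, control day 3 replicate 4, had an atrial score of -3.99 and an adipocyte score of -3.38, each the lowest of its set. The atrial differences rested on it: without this array the list median was -0.36, and Myl7 differed by -0.60, Sln by -0.43 and Myl4 by -0.26. Whether these values take part in the liver differences was not tested.

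Markers of other tissues were read in the same way. Airway and alveolar markers (4 of 8 passed) had a median difference of 0.98, or 0.55 without control day 3 replicate 6, with a score from -0.22 to 2.67 on the high-score arrays and from -0.08 to 0.30 on the low-score arrays. Among the high-score arrays the airway score was 2.67 on control day 3 replicate 6, 2.18 on control day 3 replicate 5 and 1.13 on carbon black day 3 replicate 1. It reached 4.18 on control day 3 replicate 1, an array in neither set with a liver score of 0.80. The club cell secretoglobin Scgb1a1 was above background on 6 high-score and 3 low-score arrays, and the surfactant gene Sftpc on 1 high-score and 2 low-score arrays. The part of these cells in the differences was not tested. Exocrine pancreas and gut (median 0.17, 7 of 16 passed), kidney (0.19, 3 of 7 passed), T and B cells (-0.03), macrophages (0.07), fibroblasts (0.16) and white and brown adipocytes (0.00) had no gene with sets apart. Erythroid cells (-0.61), neutrophils (-0.25) and fast skeletal muscle (-0.27) lay below the median of all genes, and no member of theirs had sets apart either. Over all genes the sets were apart in 0.717% (higher) and 0.146% (lower), so nothing is read from the lack of such genes in short lists. The small medians of these lists moved with single arrays. Without control day 3 replicate 4, that of adipocytes was 0.84 and that of erythroid cells -0.39. Without carbon black day 1 replicate 5, fibroblasts were at -0.08 and macrophages at -0.11. Without carbon black day 1 replicate 3, T and B cells were at 0.22, neutrophils at -0.13 and fast skeletal muscle at -0.14.

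The high-score arrays differed among themselves in how far the higher genes outside the score were raised. For the 137 higher genes outside the score, the median height above the mean of the low-score arrays was 4.15 on control day 3 replicate 5, 2.03 on control day 3 replicate 6 and 1.57 on carbon black day 3 replicate 3. It was 0.96 on control day 3 replicate 4, 0.94 on control day 1 replicate 3 and 0.73 on carbon black day 3 replicate 1. Control day 3 replicate 5 held the highest of the 6 values for 120 of the 137 genes, and without it the number of higher genes past a difference of 1 was 83 in place of 116. Carbon black day 3 replicate 1 held the lowest of the 6 for 74 genes. The order over the 137 genes was thus the order of the score, though the score spanned only 2.58 to 4.28. The log2 ratio of albumin did not show that spread, as its values above stayed within 4.50 to 5.13. Its normalized log2 Cy5 signal averaged 14.02 on the high-score arrays and 6.38 on the low-score arrays. The ratio of albumin, with a difference of 4.55, thus gave a smaller fold than its Cy5 signal. Whether that ratio levels off at high signal was not tested. On the day 28 arrays the median height of the 137 genes lay between -0.03 and 0.05.

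Whether the 137 transcripts go with the liver score outside the arrays that chose them was tested on the 11 arrays of days 1 and 3 in neither set. A limma model with day, arm and liver score gave each gene a slope, the log2 change per unit of score, with 7 residual degrees of freedom and adjustment over all genes. Past an adjusted p of 0.05 were 10 genes with a slope above 0 (0.0505% of genes) and 0 with a slope below 0, the score genes left out, and 746 genes in either direction had an unadjusted p under 0.05. All 10 belonged to the 137. The largest slope was that of Fabp1, 2.23 ± 0.21 (SE, adjusted p = 0.00434 by limma), and the smallest adjusted p that of Ces1c, with a slope of 1.64 ± 0.10 (SE, adjusted p = 0.000246 by limma). The other 8 were Ambp (1.43), Serpina1d (1.29), Fgg (1.20), Apoh (1.16), Cyp3a41a (0.92), Serpinc1 (0.84), Fbp1 (0.83) and Mbl2 (0.78). Without control day 1 replicate 2 the number past the threshold was 5, and without control day 1 replicate 1 it was 6. Control day 1 replicate 2 and carbon black day 1 replicate 6, with liver scores of 0.37 and 0.12, had atrial scores of -3.93 and -3.49, and a part of the atrial share in the slopes was not tested. Serpina1d is a gene of alpha-1-antitrypsin, the inhibitor of neutrophil elastase, and Mbl2 a lectin that starts complement.

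The values of these genes on the 11 arrays filled the space between the sets. Ces1c lay at 0.52, 1.71 and 4.10 (lowest, median and highest) on those 11 arrays, above background on all of them. Fabp1 lay between 0.00 and 4.52 with a median of 1.79, and Fgg between 0.25 and 3.10 with a median of 0.85. All 11 values of Ces1c and of Fgg lay below every high-score value and above every low-score value, while those of Fabp1 overlapped with both sets. Over the 137 genes, the median height above the low-score mean was 0.63 on control day 1 replicate 1, the highest of the 11 in score, and 0.04 on carbon black day 1 replicate 4, the lowest. Of the 137 genes, 109 had a slope above 0 (79.6%), against 46.5% of all genes, and their median slope was 0.21 against -0.01. Serpina3k (0.66) and Uox (0.60) had slopes above 0 that did not pass, with adjusted p = 0.173 and 0.0649 by limma. Cyp2a5 and Cyp2a4, high in the sets, had slopes of 0.47 and 0.33 that did not pass either (adjusted p = 0.978 each by limma). Their highest values on the 11 arrays, 3.61 and 2.40, were both on control day 3 replicate 1. That array had a liver score of 0.80 and an airway score of 4.18. Cyp2f2, also with sets apart, had its highest value of the 11 arrays there too, 3.58, and its slope was -0.16 (adjusted p = 0.981 by limma). A part of airway cells in the values of Cyp2a5, Cyp2a4 and Cyp2f2 was not tested. Of the 29 lower genes 11 had a slope below 0 and none passed: the slope of Myl2 was 0.41 ± 0.27 (SE, adjusted p = 0.978 by limma), opposite in sign to its difference between the sets.

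**Figure D5:**
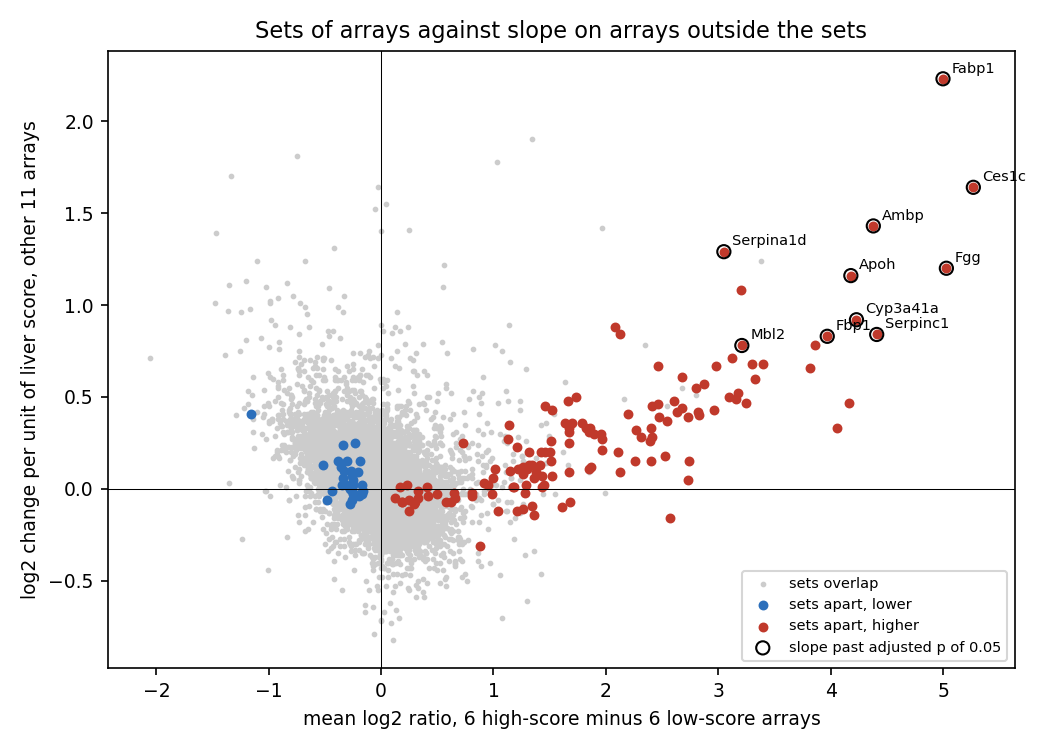
Slope on the liver score over the 11 day 1 and day 3 arrays in neither set (log2 change per unit of score, y axis) against the difference of the mean log2 ratio, high-score minus low-score arrays (x axis), 1 point per gene without the 5 score genes. The 10 genes with a slope past an adjusted p of 0.05 (circled) are all among the 137 higher genes in red, with Fabp1 at the top (2.23) and Ces1c farthest right (5.27); Myl2 is the leftmost blue point.

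With all 22 arrays outside the sets in 1 fit and the 6 groups as a factor (15 residual degrees of freedom), 38 genes had a slope past the threshold above 0 (0.192% of genes), and all 38 were among the 137. Some of these arrays share a slide, and with slide as a random block, added after seeing the data, 40 genes passed above 0, all 40 among the 137. The 11 day 28 arrays alone, with arm in the model and 8 residual degrees of freedom, gave 0 genes (0% of genes) past the threshold in limma, where the lowest adjusted p was 0.193 and 2684 genes had an unadjusted p under 0.05. The score hardly varied there, and the count rested on 1 array: without carbon black day 28 replicate 1, 500 genes passed with a slope above 0 and 107 below 0. Without control day 28 replicate 4, 1 gene passed. Of the genes that passed, 3 in the first case and 0 in the second were among the higher genes of the sets. The 6 genes of smallest unadjusted p at day 28 did not pass, and they were Me1, Gsta3, Hmgcs1, Acss2, Cd3d and Orm1, of which the malic enzyme Me1, Hmgcs1 and Acss2 are enzymes of lipid synthesis and Cd3d a chain of the T cell receptor complex. None of these 6 was among the 137.

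The sets were unequal in exposure, so the 137 genes were also read along it, as values and with no test. The median over the 137 genes of the carbon black minus control difference was -0.39 at day 1, -0.67 at day 3 and -0.01 at day 28. Over all genes that median was -0.01 at each of the 3 days. With the mean of its own group taken from each array, the sets did not overlap in 29 of the 137 genes, and the median difference was 1.36 in place of 1.67. Of all genes measured, 39 had higher values without overlap under that setting. The 137 genes were chosen for their lack of overlap on these same arrays, so this count is no test of a part of exposure. Among control arrays of the sets alone the median was 2.06. Slide 7 held 1 array of each set, carbon black day 3 replicate 3 of the high set and control day 3 replicate 3 of the low set, and between these 2 arrays the median of the 137 genes was 1.55, against -0.03 over all genes. Within the controls and within slide 7 the direction of the 137 genes is fixed by how they were chosen, so only the size is given. The arrays that chose the genes also enter the arm means of days 1 and 3. The sign of the carbon black minus control medians at those days is therefore not read as a result.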

How the data were processed

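Per the labels, total RNA of 1 mouse per array was amplified and labelled with Cy5, the reference with Cy3. Per the file headers, the scanner images went through Agilent's Feature Extraction, version 10.1.1.1. The value table deposited by the authors holds log2 ratios of sample over reference. Its scale and direction were found by setting it against log2 ratios of the deposited scanner intensity values (median signals, loess within arrays, no background correction): the columns correlated at 0.9955 to 0.9981 with slopes of 0.9882 to 0.9956, and the column medians were -0.05539 to -0.03359, so the values are not centred on 0 exactly and further steps behind them are not given in the sources used here. Deposited flags for spots well above background were used for the filter and the bounds.

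The 43379 spots that are not controls belonged to 41174 probes, and repeated spots were averaged. A probe was kept if, in 1 or more of the 6 groups, a share of 0.5 or more of the arrays had a Cy5 signal flagged above background, and if at most 3 values were missing. Of the 25249 probes that passed, 17254 had a gene symbol. Symbols came from RefSeq accessions (23374 probes) in a listing on GRCm38.p6, used for names and promoters only, as the array header gives another build. For each gene the probe of highest mean Cy5 signal was kept, which gave 19798 genes, 12352 with a symbol. Missing values made up 0.0178% of the probes that passed.

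The arrays were chosen by measured values, so the high and low sets were compared with no test. Slopes on the score were fitted with limma 3.58.1 (lmFit, eBayes) in R 4.3.3 with data.table version 1.17.8 on the arrays outside the sets, with Benjamini-Hochberg adjustment over all genes and a threshold of 0.05; figures used python 3.11.15 and matplotlib 3.10.9. The fit was also run on residuals of the arrays of days 1 and 3 in neither set, shuffled over arrays, with known slopes added. The outcome of that run is not reported here, and nothing above rests on it. Named are the 12 genes of largest difference in each direction with sets apart, the 12 of largest slope past the threshold (or the 6 of smallest unadjusted p), up to 4 members of each list, and the 5 score genes; other names were picked after their values were seen. Some genes are not reported here. The genes, sets and lists were chosen with earlier results of these data known. Replicate numbers follow the order of deposit and pair nothing. The alternatives were other background corrections and centrings, no filter, another probe rule, other score genes, sets within the controls, within day 3 or within groups, slide, and leaving out each array.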

Additional observations from a re-analysis of the deposited data

Results flagged for a closer look

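In 9 of 64 groups of values examined, 1 array stood far from the others of its group, where chance marks about 1 group in 20. Of the scores, carbon black day 1 replicate 2 had a liver score of 1.41 while the next of its group was at 0.12, carbon black day 28 replicate 5 had -0.16 with the next at -0.30, and control day 28 replicate 6 had -0.05 with the next at -0.24. Both day 28 values are small beside the early days. Among the high-score arrays, control day 3 replicate 5 was far above the others in Cyp3a41a, 7.07 with the next at 3.68, and far below them in Myl2, 1.61 with the next at 3.97. In the same set, control day 3 replicate 6 lay at -0.71 in Ghrl, the next at -0.43, and control day 3 replicate 4 at 0.95 in Pdhx, the next at 1.36. Among the low-score arrays, carbon black day 1 replicate 5 lay at 2.02 in Pdhx, the next at 1.68, and at 0.62 in Zfp113, the next at -0.01.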

How the results depend on the processing

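The 116 genes higher by 1 or more with sets apart became 83 to 135 when 1 array was left out, and 1 lower gene became 0 to 9. As deviations from the mean of the own group, 35 genes were higher and 0 lower. With control arrays of the sets alone (4 and 2 arrays) there were 203 and 172, and with day 3 arrays alone, an alternative chosen after seeing the data, 12 were lower. Lower genes numbered 2 with normexp, 2 without background correction, 10 from the processed signals and 0 with median centring, where Zfp113 turned to 0.17. Over the 137 higher genes the median was 1.67, and 1.19 with median centring (136 genes above 0) to 3.61 with processed signals. A score of normexp values chose 6 of the 6 high and 5 of the 6 low arrays, and one of processed signals 3 and 6.

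The 10 slopes past the threshold over the 11 arrays in neither set became 5 to 11 when 1 array was left out, 4 with median centring, 24 without arm and day in the model, and 4 with a score from 5 other liver transcripts, which was chosen after seeing the data. No slope below 0 passed under these alternatives. At day 28, 3 genes passed with median centring, 0 to 500 higher and 0 to 107 lower genes when 1 array was left out, and 155 higher and 159 lower with the score from other transcripts. Few of those genes were among the higher genes of the sets: 0 with median centring and 1 with the score from other transcripts. Without carbon black day 28 replicate 1, which gave the 500 and 107, it was 3. In the fit to the 22 arrays outside the sets, where 38 passed, the slopes of Me1 and Gsta3 were -0.32 and -0.16, opposite in sign to day 28; with slide as a random block there, 40 passed and the slopes were -0.32 and -0.17. The causes of these changes were not tested, except that fewer arrays in a set leave more genes without overlap by construction. Slide as a random block could not be fitted for the 11 arrays, since 1 slide alone held 2 of them. No paired analysis was possible because the labels number each animal on its own and no number is shared between groups. Slides that held several arrays were used as a block at day 28 and over the 22 arrays. Probes near background limit the low end: 67 of the 142 higher genes had only a bound on the low-score arrays.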
